A study of Mus musculus with 4 samples.

Results

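The genes described here make and run the lysosome and the autophagy pathway that feeds it. They are 45 named genes for lysosomal hydrolases, lysosomal membrane proteins and cofactors, subunits of the proton pump (V-ATPase), autophagy proteins and the transcription factor TFEB. A gene was represented by the probe set whose annotation gives only its symbol, and where there were several by the one with the highest mean signal over the 4 arrays. By this rule 44 of the 45 had a probe set, out of 12394 genes represented in the same way, and Cd63 had none. Of the 44, 41 passed the filter on dim probe sets and were tested.

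The cells were NF639, a mouse mammary tumour cell line that carries the ErbB2 (Her-2/neu) oncogene. The original population (2 arrays) was compared with a pool of the same line that is resistant to epigallocatechin gallate (EGCG), the main green tea polyphenol (2 arrays). Each value is a MAS5 signal, a background-adjusted brightness on a linear scale, from an Affymetrix mouse expression array hybridised with 1 RNA sample. The series' design text says that the RNAs came from independent experiments, and neither it nor the labels say whether EGCG was present at harvest or whether a replicate number marks a shared experiment. Both groups are populations of 1 line and the resistant cells are 1 pool, so p-values measure the spread between RNA samples of these populations.

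Lysosomal hydrolases are acid enzymes that degrade proteins, lipids and glycans. Many travel to the lysosome bound to mannose 6-phosphate receptors, and they work best in the acid lumen that the V-ATPase maintains. Autophagy encloses cytoplasm in a double membrane and delivers it to the lysosome. TFEB and its relatives TFE3 and MITF bind a short E-box in the promoters of many lysosomal and autophagy genes and coordinate their transcription.

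That E-box was looked for in the promoters of the members, because many genes of this kind are known to be controlled through it. Of the 45 members, 38 had a promoter in the RefSeq-derived table (GRCm38.p6, 250 bases before to 50 after the start), and 14 of these (36.8%) held CACGTG. Ctsh, Npc1, Atg12, Map1lc3a, Ctsb, Becn1 and Atp6v1h are not among the 38. Over the whole promoter table the share was 8.09% of 27025 genes, and among the genes on the array it was 10.8%. Among 94 other lysosome and autophagy genes with a promoter it was 21.3%. The longer form TCACGTGA, which contains the first, was in 7 of 38 members (18.4%), against 1.12% of all genes in the table. It was in 1.76% of genes on the array and in 8.51% of the other lysosome and autophagy genes. The 10-base palindromic form of the CLEAR element, which adds a G before and a C after the longer form and so contains both, was in 0 of 38 and in 0.37% of all genes. Of the other lysosome and autophagy genes 4 of 94 (4.26%) held it. Each motif reads the same on both strands, a match is a description of the letters in this window and not a binding site, and a gene with several listed starts counted once.

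Promoters of 4 members that differ in this respect are given to show the motif in place, each as the 250 bases before the transcription start, 5′ to 3′ on the gene's strand, with CACGTG in capitals, or TCACGTGA where it occurs in full. Ctsd (chr7:142387828-142388077, minus strand) and Gla (chrX:134601006-134601255, minus strand) hold the longer form, Lamp1 (chr8:13158911-13159160, plus strand) holds 4 copies of the short form, and Npc2 (chr12:84773113-84773362, minus strand) holds neither.
Ctsd: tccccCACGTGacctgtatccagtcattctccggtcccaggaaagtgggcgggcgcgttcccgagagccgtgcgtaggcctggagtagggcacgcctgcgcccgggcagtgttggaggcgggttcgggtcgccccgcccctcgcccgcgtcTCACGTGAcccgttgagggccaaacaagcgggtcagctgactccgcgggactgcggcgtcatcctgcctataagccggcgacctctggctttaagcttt
Gla: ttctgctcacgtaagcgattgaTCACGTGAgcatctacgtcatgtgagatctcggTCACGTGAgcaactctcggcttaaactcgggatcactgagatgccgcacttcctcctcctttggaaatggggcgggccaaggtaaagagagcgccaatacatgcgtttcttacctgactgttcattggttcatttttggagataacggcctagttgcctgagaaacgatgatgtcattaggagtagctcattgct
Lamp1: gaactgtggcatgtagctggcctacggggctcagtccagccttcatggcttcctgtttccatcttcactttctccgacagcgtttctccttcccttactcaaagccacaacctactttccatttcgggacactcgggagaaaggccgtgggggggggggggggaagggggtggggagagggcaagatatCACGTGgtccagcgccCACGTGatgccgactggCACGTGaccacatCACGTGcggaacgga
Npc2: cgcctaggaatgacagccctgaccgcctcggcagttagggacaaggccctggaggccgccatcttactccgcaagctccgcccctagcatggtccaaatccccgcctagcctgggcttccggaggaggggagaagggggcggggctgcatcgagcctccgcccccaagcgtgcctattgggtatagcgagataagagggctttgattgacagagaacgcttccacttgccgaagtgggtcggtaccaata
In Ctsd the core CACGTG begins 245 and 98 bases before the start, in Gla 227 and 194 bases before it, and in Lamp1 61, 45, 28 and 15 bases before it.

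The arrays were checked against markers before the comparison. Of 7 markers of luminal epithelium 1, Erbb2, passed the filter, with signals of 280.7 to 326.2, while Krt8, Krt18, Epcam and Cdh1 had signals of 1.4 to 62.9, so the defining epithelial keratin and adhesion genes are at or near the floor in both populations. Of 8 macrophage and leukocyte markers 3 passed the filter, Cd14 (194.5 to 247.4), Lyz2 (79.6 to 186.6) and Csf1r (46.5 to 103.8). They were fitted at -0.20, -0.17 and -0.18. Ptprc and Itgam were below 20, although Itgam had 2.2 and 2.6 on the original arrays against 13.1 and 19.8 on the resistant ones. The list summed to 610.4 and 433.5 on the original arrays against 487.4 and 471.1 on the resistant ones. Basal and myoepithelial markers summed to 1006.2 and 401.3 on the original arrays and to 1312.7 and 3083.6 on the resistant ones, most of it Acta2. Acta2 and Krt14 of the 6 passed the filter, Krt14 only through resistant 2 (124.2, against 28.8 to 35.7 on the other arrays). Fibroblast markers, 4 of 5 of which passed, summed to 5578.1 and 4918.8 against 3797 and 3951.7, most of it Col1a2, and of the 4 Col1a2 (-0.62) and Dcn (-2.14) were fitted lower and Col1a1 (0.99) and Pdgfra (0.72) higher. Summed signals of 4 endothelial markers, none of which passed, were 31.8 to 69.4. The part of these markers in the results that follow was not tested. The 7 probe sets of spiked-in BioB, BioC and BioDn were brighter on replicate 2 than on replicate 1 in both populations, by 1.39 to 2.29 times, so differences are also given within each number, although no label names a batch. Original 2 also stood apart in an 18S ribosomal RNA probe set, with a signal of 4005.3 against 346.7 to 624.3 on the other 3 arrays. Original 1 stood apart in the transferrin receptor control probe sets, for example with 2630.2 against 1166 to 1377.5 on the other 3 arrays.

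No member passed the test over all probe sets. Differences are resistant minus original on the log2(signal + 3) scale, on which changes of dim genes are understated, and come from limma with Benjamini-Hochberg adjustment at 0.05. Of the 41 tested members 0 were called, and the lowest adjusted p was 0.368 (Ctsd). Of all 13576 probe sets tested 34 (0.25%) were called, 0.0958% higher and 0.155% lower, and of 7514 genes 26 (0.346%), 0.133% higher and 0.213% lower, so a count of 0 among 41 is near that background. At an unadjusted p under 0.05, 3 members were higher (Ctsd, Map1lc3a and Npc2; 7.32% against 4.09% of all genes and 3.51% of probe sets) and 0 were lower (against 4.01% of all genes and 4% of probe sets). With the replicate number as a term of the same fit these 3 members passed, all higher, and 0 lower. In that fit 6.08% of genes were called, 2.9% higher and 3.18% lower, and 5.44% of probe sets, 2.37% higher and 3.07% lower. Its prior degrees of freedom were infinite, so its standard errors follow the trend of variance over all probe sets. A gene's own spread does not enter them, and its p-value can be small where the replicate numbers differ widely.

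Most members were fitted slightly above 0, by less than the spread between arrays. Their median difference was 0.11, against 0.02 over all genes tested, and 30 of 41 (73.2%) were fitted above 0, against 53% of all genes. The values ran from -0.28 (Neu1) to 0.89 (Tfeb), and 29 of 41 lay within 0.25 of 0. The median moved with single arrays: it was -0.040 without original 2 (19 of 41 above 0), -0.042 without resistant 1 (18 of 41), 0.31 without original 1 and 0.28 without resistant 2. The pooled standard deviation between arrays of the members' median was 0.201, larger than the median difference itself.

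Signals of the 2 populations did not overlap for 12 of the 41 tested members. Of the 41, 10 (24.4%) were higher and 2 (4.88%) lower on the resistant arrays. The background was 37.2% of genes (19.9% higher, 17.2% lower) and 36.1% of probe sets (17.8% higher, 18.2% lower). The higher ones were Ctsd, Gla, Ctsb, Npc2, Map1lc3a, Wipi1, Gabarapl1, Atg5, Gabarap and Atp6ap1, and the lower ones were Atp6v0d1 and Gabarapl2. For 35 of the 41 members the 95% interval of the difference lay inside a doubling or halving, so at this number of arrays a change of that size is outside the interval for most members, whereas for 11 of 41 the interval also excluded a change of 1.5 times.

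**Figure D1:**
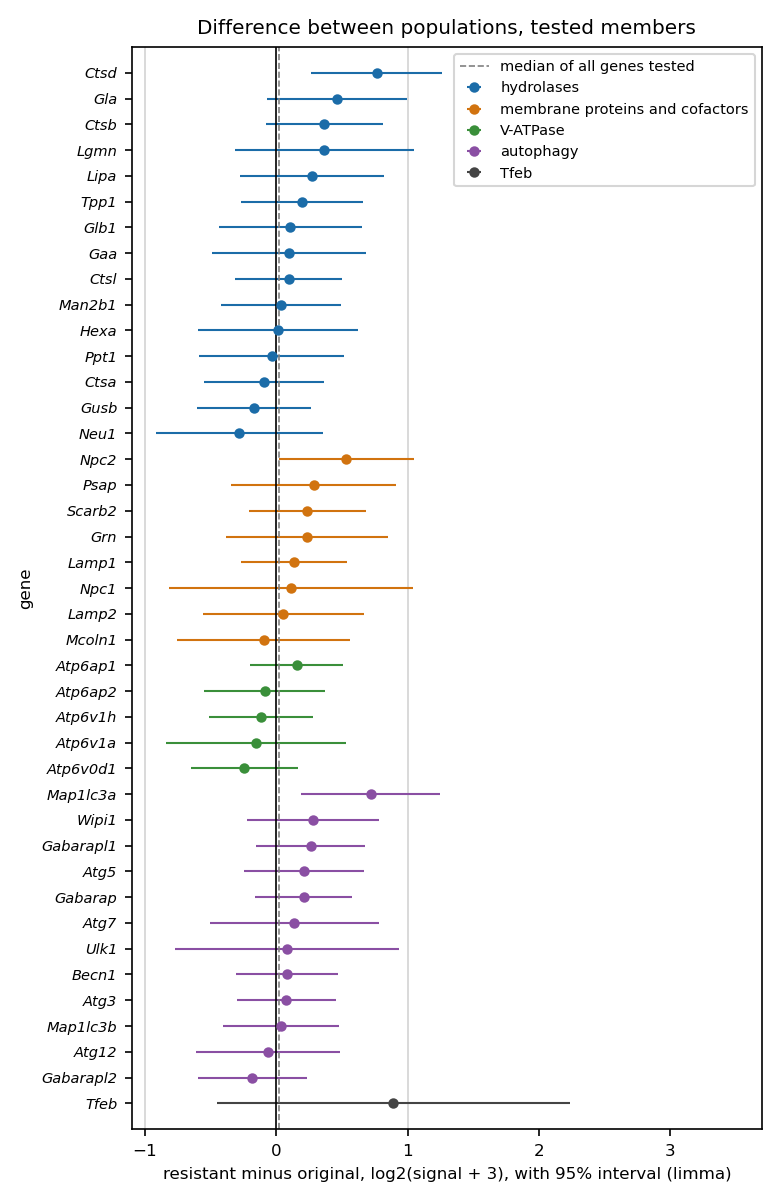
Difference between populations for the 41 tested members, resistant minus original on the log2(signal + 3) scale. Points are fitted differences and lines 95% intervals from limma, coloured by role, the dashed line is the median of all genes tested (0.02), and the light grey lines mark a doubling and a halving. Most intervals include 0, and those of Ctsd, Npc2 and Map1lc3a lie above it before adjustment.

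The hydrolases, which are the degradative enzymes of the lysosome, had a median of 0.10 over 15 tested members, with 11 fitted above 0. The median was -0.098 without original 2, -0.057 without resistant 1, 0.38 without original 1 and 0.27 without resistant 2. Ctsd, which had the largest fitted difference of these 15, encodes cathepsin D, the main aspartic protease of the lysosome. Its signals were 2745.8 and 1667.2 on the original arrays against 3520.9 and 3756.3 on the resistant ones. Both resistant arrays were brighter than both original ones, and the original arrays lay far apart. The difference was 0.76 ± 0.225 (SE, n = 2 per group; interval 0.26 to 1.26; limma adjusted p = 0.368), at 0.36 within number 1 and 1.17 within number 2. Without original 2 it was 0.41 and without original 1 it was 1.12. With the replicate number as a term its limma adjusted p was 8.63e-06, from a standard error of 0.142 that takes no account of the gap between 0.36 and 1.17.

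Ctsb encodes cathepsin B, a cysteine protease that also trims peptides as a carboxypeptidase. Its signals were 4735.6 and 3263 on the original arrays against 5287.8 and 4862.3 on the resistant ones. The resistant arrays were higher without overlap, although resistant 2 exceeded original 1 by little. The difference was 0.37 ± 0.199 (SE; limma adjusted p = 0.754), and all 4 of its probe sets were fitted above 0, from 0.22 to 0.37. Gla, which encodes alpha-galactosidase A, the glycolipid hydrolase deficient in Fabry disease, had 482 and 337.8 on the original arrays against 625.1 and 497.4 on the resistant ones. These signals did not overlap either, with a difference of 0.46 ± 0.239 (SE; limma adjusted p = 0.737), but the second, dimmer probe set of Gla was at -0.22. Without original 2 the differences of Ctsb and Gla were 0.10 and 0.21, and without original 1 they were 0.64 and 0.72.

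Ctsl, the cysteine protease cathepsin L, overlapped between the populations, at 3041.8 and 3577.1 against 3968.7 and 3123.2. Its difference was 0.09 (interval -0.31 to 0.50), higher within number 1 (0.38) and lower within number 2 (-0.20). The asparaginyl endopeptidase gene Lgmn was at 0.37, the lipid hydrolase gene Lipa at 0.27 and the tripeptidyl peptidase gene Tpp1 at 0.20, all with overlapping arrays. The second tested probe set of Lipa was at -0.06. The other tested hydrolase genes, also with overlapping arrays, were Glb1 (0.11), Gaa (0.10), Man2b1 (0.04), Hexa (0.01), the palmitoyl thioesterase gene Ppt1 (-0.04), Ctsa (-0.10), Gusb (-0.17) and the sialidase gene Neu1 (-0.28). The second tested probe set of Gusb was lower without overlap, with 689.9 and 712.5 against 523.8 and 482.8. Its difference was -0.48 (limma adjusted p = 0.587). Second probe sets of Ppt1, Gaa and Tpp1 were at -0.23, 0.24 and 0.50. Ctsh, Ctss and Ctsz had mean signals under the filter and were not tested. Their highest signal on any array was 28.2 for Ctsh, 8.7 for Ctss and 7.1 for Ctsz, near the floor of the scale.

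**Figure D2:**
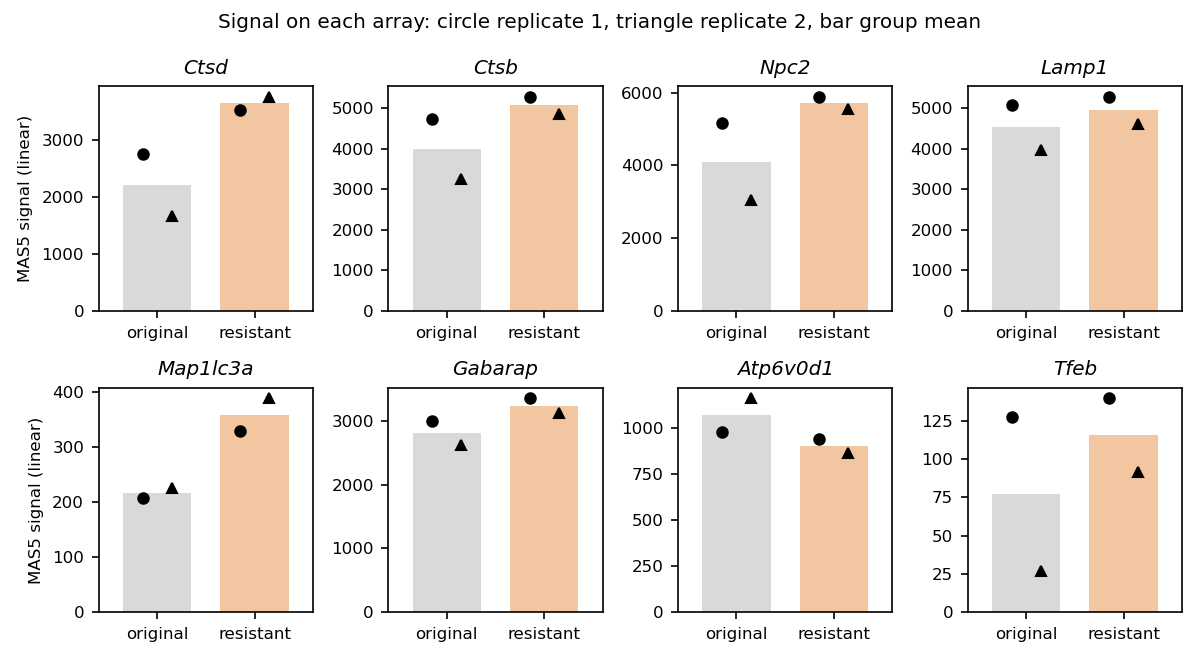
MAS5 signal (linear scale) of 8 members on each array; circles are replicate 1, triangles replicate 2 and bars the group mean. Ctsd, Ctsb, Npc2, Map1lc3a and Gabarap were higher and Atp6v0d1 lower without overlap, whereas Lamp1 and Tfeb overlapped.

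The genes of lysosomal membrane proteins and soluble cofactors had a median of 0.18 over 8 tested members, with 7 above 0. The median was -0.19 without original 2, 0.026 without resistant 1, 0.54 without original 1 and 0.39 without resistant 2. Npc2 encodes the small lumenal protein that hands cholesterol to NPC1 in the lysosomal membrane. Its signals were 5150.8 and 3037.6 on the original arrays against 5886.9 and 5557.1 on the resistant ones. Both resistant arrays were higher, and original 2 was by far the lowest. The difference was 0.53 ± 0.231 (SE; interval 0.02 to 1.05; limma adjusted p = 0.649), at 0.19 within number 1 and 0.87 within number 2, and its second probe set gave 0.47. Without original 2 it was 0.15 and without original 1 it was 0.91. With the replicate number as a term the limma adjusted p of Npc2 was 0.00118. Its partner Npc1 was at 0.11 with overlapping arrays.

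Lamp1 and Lamp2 encode the abundant glycoproteins that line the inner face of the lysosomal membrane. Lamp1 had 5073.3 and 3978.7 on the original arrays against 5282 and 4603.7 on the resistant ones, a difference of 0.13 (interval -0.27 to 0.54). Lamp2 had 3548.7 and 2044.9 against 3495.6 and 2233.1, a difference of 0.05 (interval -0.56 to 0.67), and its 4 probe sets ran from -0.10 to 0.25. For both, the array numbered 2 was lower in each population, and the populations overlapped. The saposin precursor gene Psap (0.28), the gene of the beta-glucocerebrosidase receptor Scarb2 (0.24) and the progranulin gene Grn (0.24) were fitted above 0 with overlap. The second probe set of Scarb2 was at -0.20. Mcoln1, the calcium channel of the lysosomal membrane, had 356.5 and 204.8 against 233.1 and 273.4. Its sign turned between the numbers, from -0.61 for number 1 to 0.41 for number 2, with a fitted difference of -0.10 (interval -0.76 to 0.56). The second probe set of Mcoln1 was at 0.06.

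The V-ATPase members were mostly fitted below 0. Their median was -0.12 over 5 tested members, 4 of them fitted below 0, and it was 0.12 without resistant 2, -0.30 without resistant 1 and -0.060 without original 1. Atp6v0d1, a subunit of the membrane sector, had 977.8 and 1160.1 on the original arrays against 938.1 and 861.8 on the resistant ones, lower without overlap, with a difference of -0.24 ± 0.183 (SE; limma adjusted p = 0.864), or -0.12 without original 2 and -0.37 without original 1. Atp6ap1, an accessory subunit that assists assembly, had 2645.5 and 2532.4 against 2818.1 and 2956.7, higher without overlap, at 0.16 ± 0.159 (SE; limma adjusted p = 0.92). Atp6v1a, the catalytic subunit that hydrolyses ATP, had 1330.6 and 1085.8 against 1595.7 and 729.8. Its 2 resistant arrays held both the highest and the lowest signal, and the difference was 0.26 within number 1 and -0.57 within number 2. The fitted difference was -0.15, but the second probe set of Atp6v1a was at 0.12. Atp6v1h (-0.12) and the prorenin receptor gene Atp6ap2 (-0.09) overlapped, and the 3 probe sets of Atp6ap2 ran from -0.09 to 0.002. The 12 other V-ATPase genes tested, which are not members, had a median of 0.03, with 7 above 0. The difference between the V-ATPase genes and the other roles was not tested.

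The autophagy genes had a median of 0.11 over 12 tested members, with 10 fitted above 0, and of 0.27 without resistant 2. Map1lc3a, an LC3 protein gene of the autophagosome membrane, measured 207.3 and 226.3 on the original arrays against 329.7 and 389.3 on the resistant ones. The populations were well separated and arrays of 1 group lay close together. The difference was 0.72 ± 0.238 (SE, n = 2 per group; interval 0.19 to 1.25; limma adjusted p = 0.459), and it was of like size within number 1 (0.66) and number 2 (0.77). It was 0.60 to 0.84 when any 1 array was left out, and with the replicate number as a term its limma adjusted p was 0.0279.

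Its close relative Map1lc3b, the LC3 gene most often used to follow autophagy, was at 1807.6 and 1625.2 against 2079.6 and 1483. These overlapped, with a difference of 0.04 (interval -0.40 to 0.47), and its 3 tested probe sets lay between -0.07 and 0.04. Gabarap had 3000 and 2613.3 against 3350.8 and 3120.8, a difference of 0.21 ± 0.165 (SE; limma adjusted p = 0.88). Gabarapl1 had 774 and 965.8 against 1049.3 and 1025.2, a difference of 0.26 ± 0.187 (SE; limma adjusted p = 0.847), but its second probe set was at -0.14. Gabarapl2 was the 1 autophagy member lower without overlap, with 730.4 and 819.8 against 704.4 and 660.3, a difference of -0.18 ± 0.186 (SE; limma adjusted p = 0.921). Without original 1 Gabarapl1 was at 0.10, and without original 2 Gabarapl1 was at 0.42, Gabarap at 0.11 and Gabarapl2 at -0.098.

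Of the genes that build the autophagosome, Becn1, which encodes a subunit of the lipid kinase complex that starts the membrane, had 1290.1 and 1430.7 against 1335.5 and 1543.3. Its groups overlapped, and the difference of 0.08 had an interval of -0.31 to 0.47. Wipi1, a reader of the lipid that this kinase makes, had 288.6 and 270.5 against 359.6 and 321.8, higher without overlap at 0.28 ± 0.227 (SE; limma adjusted p = 0.88), though its 4 tested probe sets ran from -0.20 to 0.28. Atg5, part of the conjugation machinery that attaches lipid to LC3, had 390.2 and 443.4 against 473.9 and 489.7, at 0.21 ± 0.206 (SE; limma adjusted p = 0.913), and its other probe sets gave larger differences, up to 0.53. Without original 1 the difference of Atg5 was 0.12. The other conjugation genes Atg7 (0.14), Atg3 (0.08) and Atg12 (-0.06) and the initiating kinase gene Ulk1 (0.08) overlapped.

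For Tfeb, the regulator of the set, the signals were 127.5 and 27.1 on the original arrays against 139.7 and 91.8 on the resistant ones. Original 2 lay under the filter's mean signal of 51.9 and the other 3 arrays above it, and the populations overlapped because original 1 exceeded resistant 2. The difference of 0.89 ± 0.604 (SE; interval -0.45 to 2.24; limma adjusted p = 0.837) had the widest interval of the tested members. It was 0.13 within number 1 and 1.65 within number 2, and -0.17 without original 2.

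Original 2 was the lowest of the 4 arrays for 24 of the 41 members (58.5%), against 28.9% of all probe sets tested. Resistant 1 was the highest for 20 members, a count for which no share over all probe sets was computed. The median difference of original 2 minus original 1 was -0.30 over the members and -0.05 over all genes tested. It was -0.79 for the membrane proteins and cofactors, -0.51 for the hydrolases, -0.06 for the V-ATPase and 0.14 for the autophagy genes. In the resistant pool, array 2 was below array 1 for 34 of 41 members (share over all genes not computed), with a median of -0.25 against -0.06 over all genes tested. The part of the spiked-control split in this was not tested.

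**Figure D3:**
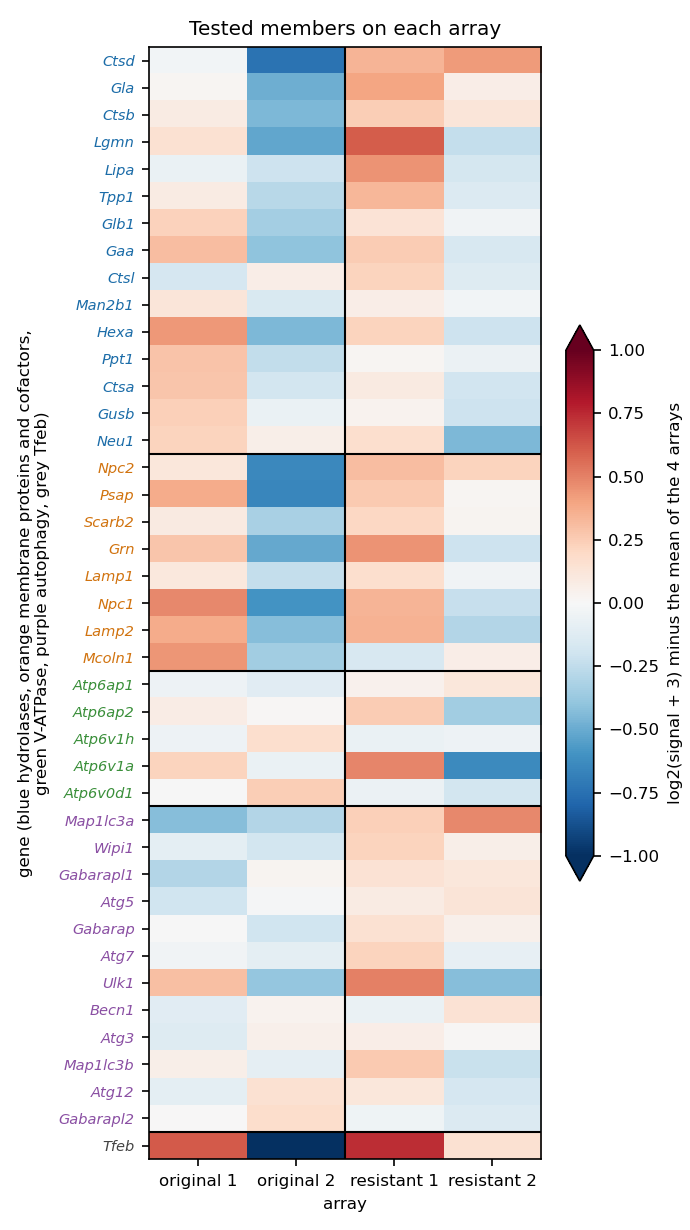
Tested members (rows, grouped by role) on the 4 arrays (columns), as log2(signal + 3) minus the gene's mean over the arrays; red is above and blue below that mean, and values beyond 1 in size take the end colours. Original 2 is the lowest array for 24 of 41 members, most of them hydrolases, membrane proteins and cofactors, and Map1lc3a separates the populations.

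Within the replicate numbers the members had a median difference of 0.16 for number 1 and 0.14 for number 2, and 25 of 41 (61%) had the same sign in both, against 59.7% of all genes tested. By role the 2 numbers diverged: the membrane proteins and cofactors were at 0.02 and 0.36, the hydrolases at -0.05 and 0.19, the V-ATPase at 0.09 and -0.36 and the autophagy genes at 0.20 and 0.05. Several probe sets of 1 gene gave a further check. Of 22 members with 2 or more tested probe sets, 11 had all of them on 1 side of 0 and 11 did not, and the median range within a gene was 0.19. Those 11 with both signs were Atg7, Atp6ap2, Atp6v1a, Gabarapl1, Gla, Lamp2, Lipa, Map1lc3b, Mcoln1, Scarb2 and Wipi1. Ctsd and Map1lc3a had only 1 probe set each, so this check does not cover them.

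**Figure D4:**
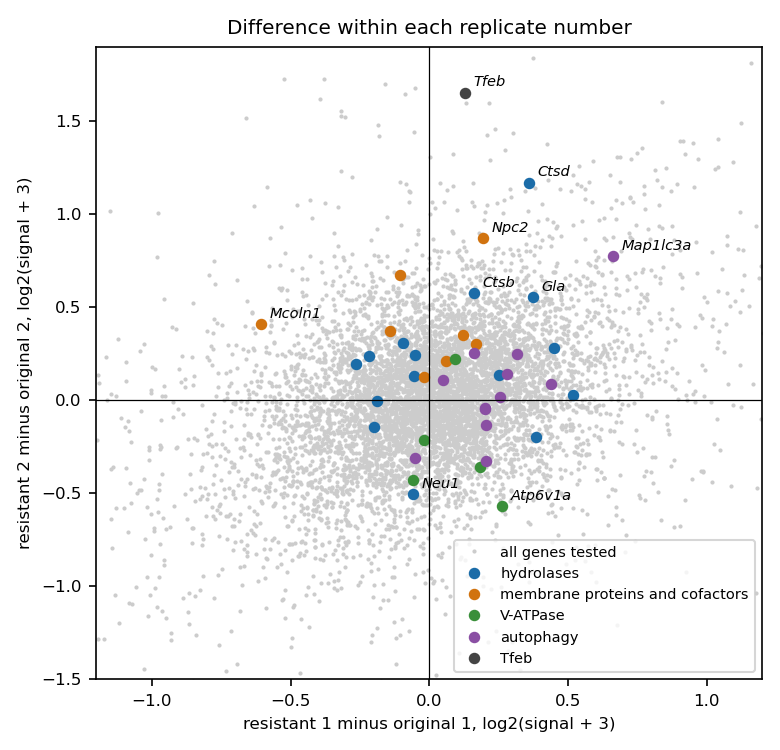
Difference within replicate number 1 (horizontal axis) and number 2 (vertical axis) on the log2(signal + 3) scale; coloured points are tested members by role and grey points all genes tested, of which 166 lie outside the axes. Map1lc3a is similar in both, Ctsd, Npc2 and Tfeb differ mainly in number 2, and Mcoln1 and Atp6v1a change sign.

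The members were also described by the E-box. The 14 tested members with CACGTG in the promoter window had a median difference of 0.10, from -0.24 (Atp6v0d1) to 0.76 (Ctsd), with 10 above 0. The 21 without it had a median of 0.16, from -0.28 (Neu1) to 0.89 (Tfeb), with 16 above 0. Of the 7 tested members with the longer form, Ctsd (0.76) and Gla (0.46) were higher and Atp6v0d1 (-0.24) lower without overlap, while Atg3 (0.08), Ctsa (-0.10), Mcoln1 (-0.10) and Atp6v1a (-0.15) overlapped. Npc2, which holds no match, was higher without overlap. Lamp1, with 4 copies, overlapped. The 2 classes were not tested against each other.

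A wider list of lysosome and autophagy genes outside the members, 120 symbols of which 96 had a probe set and 83 were tested, had a median of 0.01, with 44 above 0 and 39 below, and 0 were called by limma with adjustment. At an unadjusted p under 0.05, 4 were higher and 4 lower (4.82% each, against 4.09% and 4.01% of all genes). Arrays did not overlap for 11 higher and 11 lower genes (13.3% each, against 19.9% and 17.2% of all genes). With the replicate number as a term 2 were higher and 4 lower of the 83, against 2.9% and 3.18% of all genes. The higher ones were Arsa and Laptm4b and the lower ones Igf2r, Bnip3, Cln3 and Asah1. The list's median also moved with single arrays, to -0.091 without original 2, -0.087 without resistant 1, 0.10 without original 1 and 0.14 without resistant 2.

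The most negative differences in that list were those of the sorting receptor and of a mitophagy gene, which passed with the replicate number as a term and not without it. Igf2r, the large mannose 6-phosphate receptor that carries hydrolases to the lysosome, had 598.5 and 276.2 on the original arrays against 126.5 and 56.5 on the resistant ones. Both resistant signals were lower than both original ones, the difference was -2.22 (limma adjusted p = 0.106), and its second probe set gave -2.12. That probe set had 192.6 and 128.8 on the original arrays against 44.9 and 25.6 on the resistant ones. Both of its resistant signals lay under the filter's mean signal, and the 56.5 above was close to it. The size of the drop therefore rests partly on dim signals. With the replicate number as a term the limma adjusted p of Igf2r was 5.17e-16. Its difference was -2.78 without original 2, -2.78 without resistant 1, -1.67 without original 1 and -1.66 without resistant 2. The other mannose 6-phosphate receptor gene, M6pr, was at -0.01. Bnip3, a mitophagy receptor, had 721.5 and 1958.7 against 378.7 and 408.3, a difference of -1.59 (limma adjusted p = 0.19), or 9.79e-15 with the replicate number as a term. The difference of Bnip3 was -0.92 within number 1 and -2.25 within number 2, and the original arrays lay far apart. It was -2.31 without original 1, -0.87 without original 2, -1.54 without resistant 1 and -1.64 without resistant 2.

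Cln3, a lysosomal membrane protein gene of Batten disease, had 154.2 and 145.9 against 89.9 and 56.9 (-1.04, limma adjusted p = 0.498, or 0.028 with the replicate number as a term). The ceramidase gene Asah1, named after its values were seen, had 1438.6 and 1105.5 against 876.2 and 690.7 (-0.69, limma adjusted p = 0.368, or 0.00312 with that term). On the other side, the sulfatase gene Arsa had 527.6 and 334.8 against 805 and 573.7 (0.69, limma adjusted p = 0.574, or 0.0118 with that term), and its difference was 0.36 without original 2 and 0.45 without resistant 1. Laptm4b, a lysosomal membrane protein gene, had 2278.1 and 1933.7 against 3281.5 and 2928.6 (0.56, limma adjusted p = 0.379, or 0.00409 with that term), with all 3 probe sets above 0. None of these 4 overlapped between the populations. Gm2a, also named after its values were seen, had the largest positive difference of the list and passed in neither fit. Its signals were 135.8 and 107.7 against 216.3 and 200.2 (0.77, limma adjusted p = 0.564, or 0.0646 with the replicate number as a term). The autophagy receptor gene Sqstm1 had 4409.9 and 4687.7 against 5259.6 and 5482.4 (0.24, limma adjusted p = 0.835), and the TFEB relative Mitf had 164.1 and 171.2 against 188.6 and 142.1 (-0.03, limma adjusted p = 0.998).

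**Figure D5:**
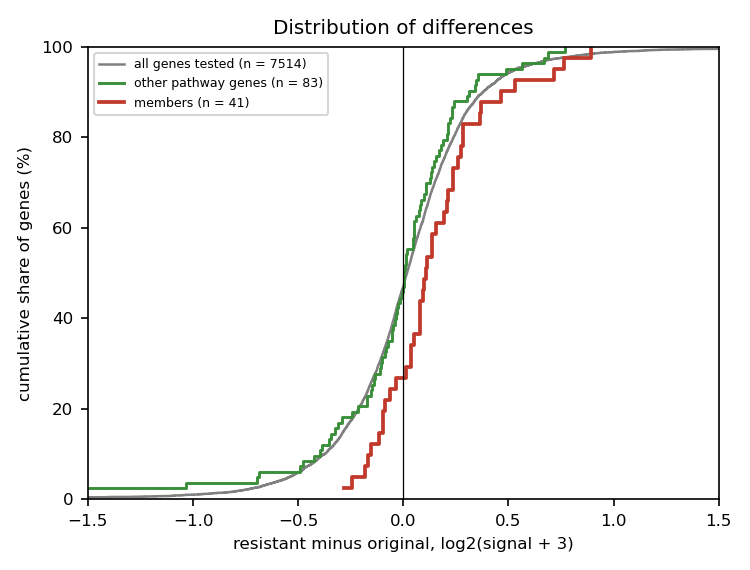
Cumulative share of genes by difference between the populations, resistant minus original on the log2(signal + 3) scale, for the 41 tested members, 83 other lysosome and autophagy genes and 7514 genes tested; 61 genes, 2 of them in the wider list, lie outside the axis. The members' curve lies to the right of the others around its median of 0.11, and the wider list follows all genes.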

How the data were processed

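Total RNA of 4 NF639 samples, 2 original and 2 EGCG-resistant, was measured on 1 array each. The deposited values are signal intensities made by the authors with MAS5, per the submitters' processing notes; no version of it is named there, and the values show a common scale, with a 2% trimmed mean of 496.2 to 496.6 on each array. Arrays were rescaled to a common trimmed mean, a pseudocount of 3 (the rounded 10th percentile of signals) was added and log2 taken. After 64 controls were set aside, 13576 of the remaining probe sets, those with a mean signal of at least 51.9 (the 40th percentile), were fitted with limma 3.58.1 in R 4.3.3 (lmFit, eBayes with trend, 8.18 prior degrees of freedom), and adjusted by Benjamini-Hochberg over all of them. The procedure was tested on simulated data. False calls stayed near the threshold when the spread was drawn from limma's prior. They exceeded it when each probe set was given its own fitted spread. Intervals are 95% and use the moderated standard error.

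Gene names are those of the platform annotation, which gives 1 symbol to 20380 probe sets, several to 691 and lists none for 1555. Members and lists were chosen with earlier results of these data known. Values on every array are given for members called in the fit without or with the replicate number, for up to 10 others in each direction with the largest non-overlapping difference, and for 11 landmark genes; for the wider list, for up to 3 called genes in each direction and for Sqstm1 and Mitf (Tfe3 had no probe set with a single symbol). Alternatives were other pseudocounts, filters, scaling and variance models, the replicate number as a block and each array left out. For arrays, their number limits the precision.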

Additional observations from a re-analysis of the deposited data

How the results depend on the processing

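The count of 0 called members held under each alternative that gave a test except the replicate block, under which 3 passed (Ctsd, Npc2 and Map1lc3a); the mean over probe sets gave no test. The median difference of the tested members was 0.09 to 0.12 under the pseudocount, filter, scaling, variance and probe-set alternatives, and -0.042 to 0.31 with 1 array left out. Members fitted above 0 numbered 18 to 35 of 41 with 1 array left out, and 28 to 30 of 41 under the other alternatives that tested 41. They numbered 26 of 36 with the filter at the 60th percentile and 32 of 44 without a filter. In the wider list 6 genes passed with the replicate block and 0 to 1 with 1 array left out. Among all probe sets 739 were called with the replicate block, 5 without the filter on dim probe sets, 11 with a filter at the 60th percentile, 8 after quantile normalisation, 5 without a variance trend and 30 to 107 with 1 array left out, against 34; taking the filter on mean log2 values, an alternative chosen after seeing the data, gave 26. The labels do not say that a replicate number marks a shared experiment. Deviations of original 1 and resistant 1 from their group means correlated at 0.35 over the tested probe sets. The block leaves 1 residual degree of freedom with infinite prior degrees of freedom, so a gene's own spread does not enter its p-values. Signals near the floor limit Ctsh, Ctss and Ctsz, which were not tested.

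With 1 array left out, the difference changed sign for Ctsl (-0.079 to 0.27), Mcoln1 (-0.49 to 0.30), Tfeb (-0.17 to 1.95), Lamp1 (-0.040 to 0.31), Lamp2 (-0.34 to 0.45), Map1lc3b (-0.21 to 0.28), Becn1 (-0.024 to 0.18), Atp6v1a (-0.72 to 0.41) and Mitf (-0.23 to 0.17), none of them called. As the mean of all tested probe sets Wipi1 was at -0.012 and Map1lc3b at -0.0038. The cause of these changes was not tested. All other members with values on every array kept their sign under every alternative run.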
